A study of Homo sapiens with 6 samples.

Results

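The STAT genes encode the transcription factors at the end of JAK-STAT signalling, and 6 of them were examined here among 24135 protein-coding and lncRNA genes: STAT2, STAT3, STAT4, STAT5A, STAT5B and STAT6. Deposited H3K27ac and H3K4me3 regions were assigned to a gene where they overlapped a window of 1 kb to each side of an annotated transcription start site (TSS). The libraries came from HSC3, an oral squamous cell carcinoma line, transfected with a control siRNA (siCONT) or with an siRNA against the long noncoding RNA DLEU1 (siDLEU1), and taken for ChIP-seq after 72 h. H3K27ac marks active promoters and enhancers and H3K4me3 marks active promoters. There was 1 library for each siRNA and mark, from a single line and a single DLEU1 siRNA, so no difference between siRNAs has a replicate check and no test across samples was possible. The lists hold no RNA measurement, so the knockdown of DLEU1 itself was not checked here. The authors report that their DLEU1 siRNAs lowered its expression in HSC3.

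STAT proteins wait in the cytoplasm, are phosphorylated on tyrosine by JAK kinases bound to a cytokine receptor, pair up and enter the nucleus to bind DNA. STAT2 acts in the type I and type III interferon response together with IRF9, STAT3 serves the IL-6 family of cytokines, STAT4 serves IL-12, STAT5A and STAT5B serve prolactin, growth hormone and several interleukins, and STAT6 serves IL-4 and IL-13. STAT3 in particular is well known for its activity in squamous carcinomas of the head and neck.

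Each region carries the authors' fold enrichment over the control track at its summit. Fold enrichments are not comparable between lists, so each region was ranked within its own list as a percentile (100 is the strongest), and a gene took its strongest region. The number of DNA fragments piled up over the summit was also recovered from the deposited fold enrichment and p-value, and is given per M library reads, where M is 1000000. A ratio below 1 means fewer fragments per M in siDLEU1. Intervals on these values are 95% intervals that cover counting error only. The recovered depths were 21.5 M reads in siCONT and 29.4 M in siDLEU1 for H3K27ac, and 28.4 M and 22.3 M for H3K4me3. Among genes marked in both lists, the siDLEU1 to siCONT fragment ratio had a median of 0.580 for H3K27ac and 1.16 for H3K4me3, and values for the STAT genes are read against these. KRT5, KRT14, TP63 and SFN, which mark squamous epithelial cells, had TSS regions in all 4 lists, and the leukocyte genes PTPRC and CD3E had none.

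All 6 STAT genes had H3K27ac at a TSS with either siRNA, against 56.3% of all genes in siCONT and 53.3% in siDLEU1. With only regions of a -log10 q-value of at least 10 kept, there were 6 in siCONT and 4 in siDLEU1, where STAT4 and STAT5A dropped out. No share of all genes at this minimum is given, so this drop is not read as a trait of these genes. The siDLEU1 list also had a lower median fold enrichment, 9.64 against 14.6. With siDLEU1 all 6 had fewer H3K27ac fragments per M at the strongest summit, as did 99.3% of all genes marked in both lists. The fall was past 1.5-fold in 5 of the 6, every one but STAT4, against 81.7% of all genes, and no ratio was past 1.5-fold higher, against 0.0468%. The median STAT ratio was 0.558, with a range from 0.391 at STAT2 to 0.699 at STAT4. The family as a whole therefore sat close to the median of all genes, and STAT2 and STAT6 lay at the low end. When each list was scaled to its own median number of summit fragments instead of its depth, the ratio was below 1 at 5, all but STAT4 (80.6% of all genes), and past 1.5-fold at 2, STAT2 and STAT6 (3.65% of all genes). Because regions of STAT5A are shared with STAT5B, the family holds 10 different H3K27ac places, and all 10 were narrower and had fewer fragments per M in siDLEU1. Covered length was also shorter in 93.6% of all genes marked in both lists. No share over all places was computed, so this count is not read as a trait of the family.

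H3K4me3 was present at 5 of the 6 genes with either siRNA, all but STAT4, against 56.6% of all genes in siCONT and 56.4% in siDLEU1. With the same q-value minimum it was 4 of the 6 in either list, without STAT5A, again with no share of all genes beside it. At those 5 genes the fragment ratio ran from 0.792 to 1.08 with a median of 1.06. It was below 1 in 2, STAT2 and STAT5A, against 26.9% of all genes, and past 1.5-fold in none, against 2.59% of all genes for a fall and 13.6% for a rise. With lists scaled to their own medians it was below 1 in all 5, against 43.2% of all genes, so the direction at STAT3, STAT5B and STAT6 depended on the scaling. The total H3K4me3 length was shorter in all 5 (68.6% of all genes) and past 1.5-fold shorter in 3, namely STAT2, STAT5A and STAT5B (12.5% of all genes). The STAT5B length includes the regions at the STAT5A promoter, which went from 913 to 336 bp and are counted for both genes. STAT5A and STAT5B are thus not separate counts here. The regions flanking the STAT5B canonical TSS went from 555 to 255 bp and from 677 to 640 bp.

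**Figure D1:**
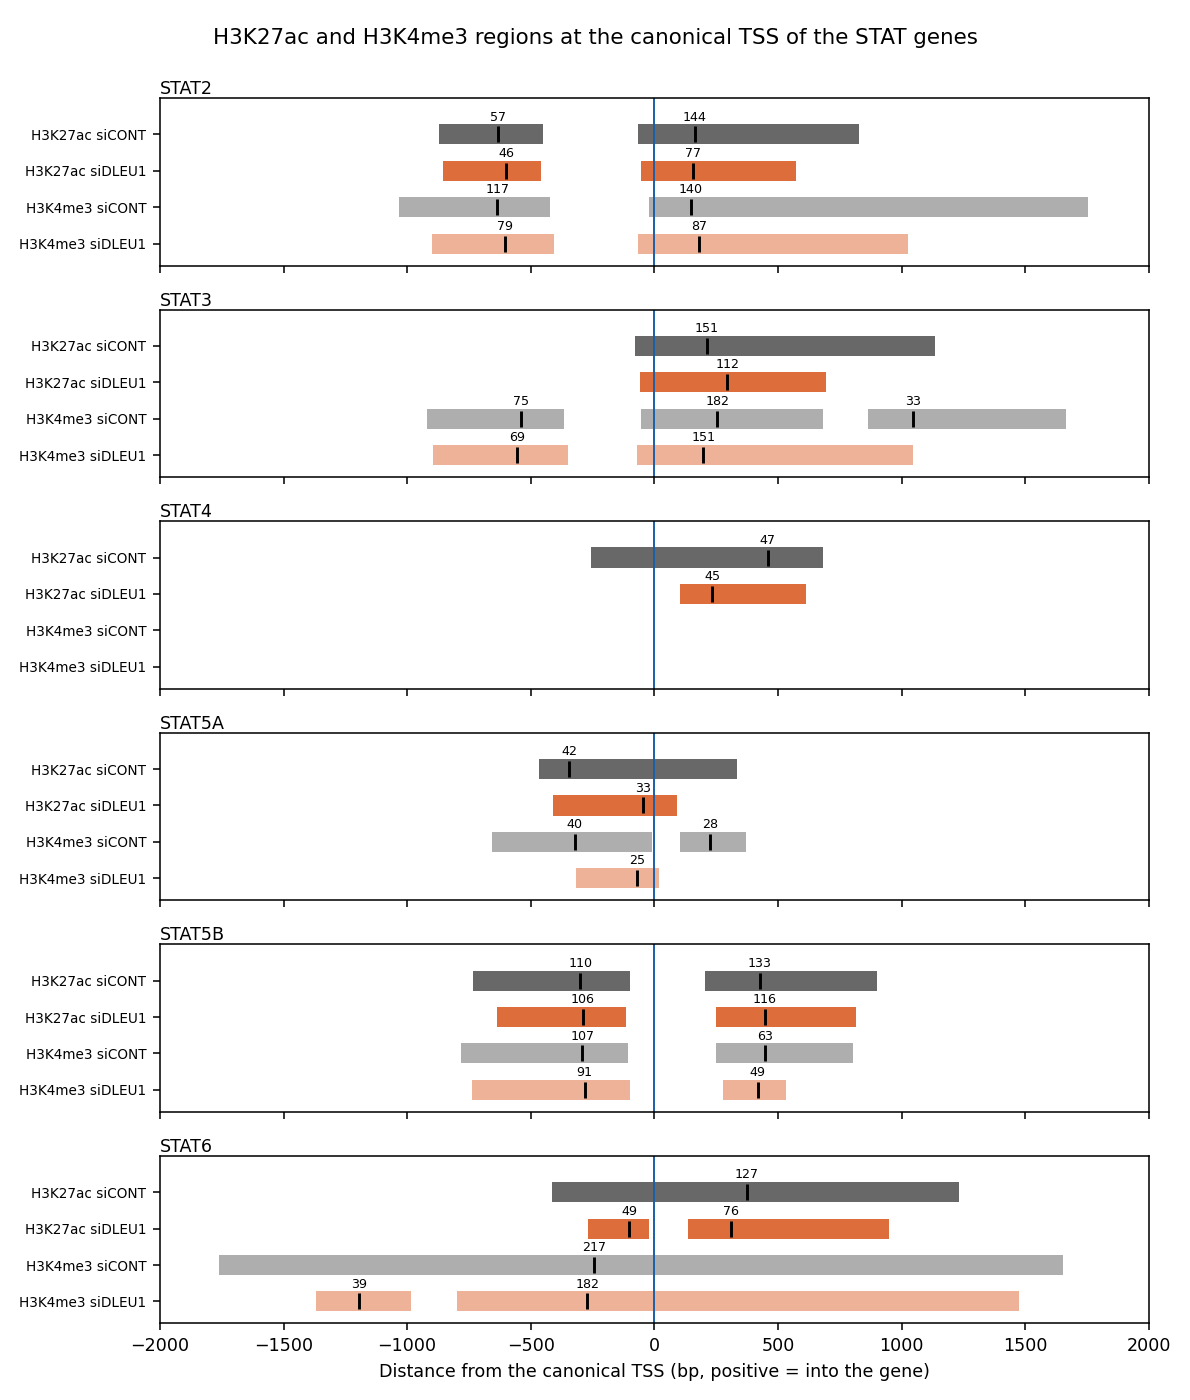
Regions in the 4 lists around each canonical TSS, with position in bp from the TSS along the gene's own direction on the x axis and a bar for each region, whose tick is the summit and whose number is its fragments. Bars are shorter with siDLEU1 at the H3K27ac places, STAT4 has no H3K4me3 bar, and the bars of STAT5B stop on either side of its TSS.

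The order of the STAT genes by H3K27ac changed little in its lower part. In siCONT, STAT3 led with 7.03 fragments per M over the summit base (5.95 to 8.25). STAT2 followed at 6.70, STAT5B at 6.19 and STAT6 at 5.91 (4.93 to 7.04), and the intervals of these 4 overlap. STAT4 at 2.19 (1.61 to 2.91) and STAT5A at 1.96 (1.41 to 2.64) lay below all 4 and overlap each other. In siDLEU1, STAT5B was first at 3.95 (3.26 to 4.73) and STAT3 next at 3.81. STAT2 at 2.62 (2.07 to 3.27) and STAT6 at 2.58 (2.04 to 3.24) came after them. STAT4 at 1.53 and STAT5A at 1.12 were again last. STAT2 and STAT6, level with STAT5B in siCONT, were thus below it in siDLEU1, although the STAT2 interval still touches that of STAT5B.

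**Figure D2:**
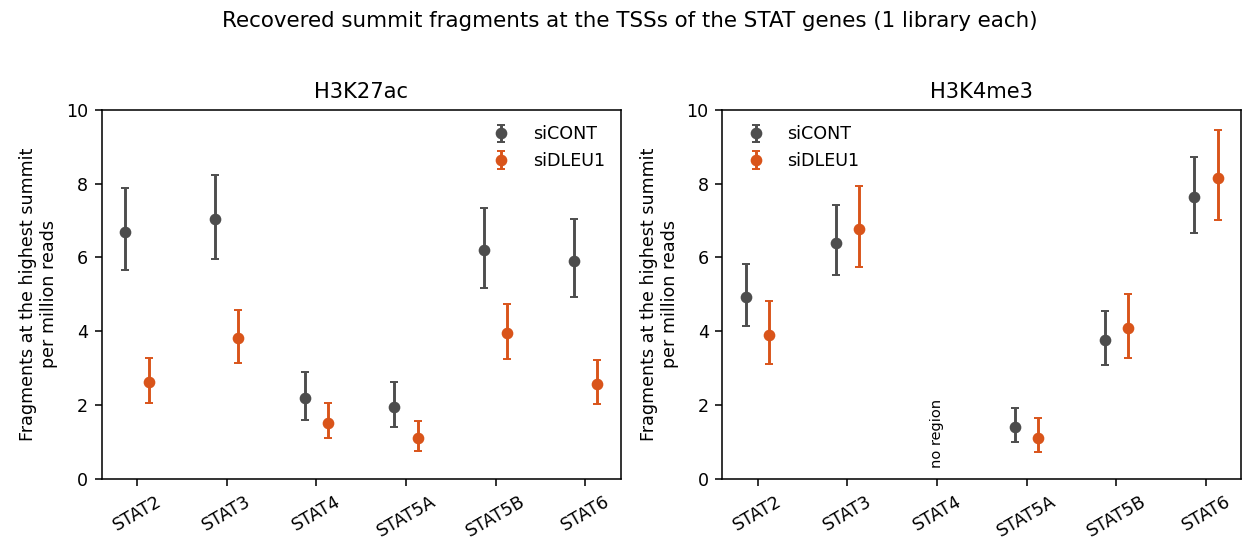
Fragments per M library reads over the strongest summit of each STAT gene on the y axis, for each mark and siRNA, with 95% counting intervals as bars. Every H3K27ac value is lower with siDLEU1, while H3K4me3 values lie close together between the siRNAs and STAT4 has none.

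STAT2 lies on the minus strand at chr12:56735381-56753987 (GRCh37, the same assembly as hg19), with its canonical TSS at position 56753891. Its promoter is shown because STAT2 had the lowest H3K27ac ratio of the family and the largest gain of rank by fold enrichment. The 250 bases before the canonical TSS, chr12:56753892-56754141 on the minus strand, are printed with capitals for the GC box GGGCGG or its reverse complement, the only searched letters found.
STAT2: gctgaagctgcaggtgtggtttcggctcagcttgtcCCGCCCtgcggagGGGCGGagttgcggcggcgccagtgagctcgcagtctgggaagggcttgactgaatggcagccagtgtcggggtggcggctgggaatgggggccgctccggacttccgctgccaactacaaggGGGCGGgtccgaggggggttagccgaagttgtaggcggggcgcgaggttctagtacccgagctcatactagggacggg
The 3 GC boxes start at -214, -201 and -78 from the TSS. GGGCGG was searched on both strands, and 53.3% of the promoters of all genes hold it in the same window. Neither the interferon response letters (GAAA, any 2 bases, GAAA) nor the STAT site letters (TTC and GAA with 3 or 4 bases between them) occur in this window.

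At the STAT2 TSS, the siCONT H3K27ac region ran from 56753063 to 56753957 over exon 1 and the start of intron 1 and had 144 fragments over its summit. The siDLEU1 region was 629 bp long instead of 895 bp and had 77 fragments. Per M reads this was 6.70 against 2.62, a ratio of 0.391 (0.292 to 0.519). The interval lies below the median of all genes, and 1.04% of genes had a ratio as low.

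The rank of STAT2 depended on how strength was measured. By fold enrichment it was higher in siDLEU1, at 73.0 against 55.9, while by fragment number it was lower, at 59.7 against 89.7. The local background under the summit, on the scale of the control track, was 2.0 in siCONT and 0.439 in siDLEU1. The fold enrichment is divided by this background plus a constant, so the divisors differ less than these values do. The part of the background in the rank difference was not tested. Only 7.15% of the siCONT H3K27ac regions had a background of at least 2. The fold enrichment itself was 16.4 in siCONT, where the median of the list was 14.6, and 12.9 in siDLEU1, where it was 9.64.

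STAT2 also had a separate H3K27ac region upstream, with a gap of 384 bp to the region at the TSS in siCONT and of 404 bp in siDLEU1. It had 57 fragments in siCONT and 46 in siDLEU1, a ratio of 0.589 (0.391 to 0.885), which is near the median of all genes. Its interval overlaps that of the region at the TSS, and the ratios of the 2 places were not compared directly.

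H3K4me3 at STAT2 had 140 fragments at the TSS in siCONT and 87 in siDLEU1. The ratio was 0.792 (0.599 to 1.04), and 7.45% of genes had one as low. Here the interval includes 1 but lies below the median of all genes, 1.16. The upstream H3K4me3 region had 117 and 79 fragments and a ratio of 0.860 (0.638 to 1.15), and the region at the TSS shortened from 1779 to 1095 bp.

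STAT3 lies on the minus strand at chr17:40465342-40540558, with its canonical TSS at 40540460. Its H3K27ac region, over exon 1 and the start of intron 1, was 1213 bp long with 151 fragments in siCONT and 754 bp long with 112 fragments in siDLEU1. The ratio of fragments per M was 0.542 (0.420 to 0.696). STAT3 had the highest H3K27ac rank of the family in siCONT, 97.0, and was at 86.6 in siDLEU1. By fragment number the ranks were 91.9 and 87.4, a smaller fall. The local background was 0.497 in siCONT and 0.704 in siDLEU1, and its part in the rank changes was not tested.

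The H3K4me3 signal at the STAT3 TSS had 182 fragments in siCONT and 151 in siDLEU1, a ratio of 1.06 (0.846 to 1.32). Its rank was 99.1 and 94.1, and its local background 0.532 and 1.0. A second H3K4me3 region upstream of the TSS had 75 and 69 fragments, a ratio of 1.17 (0.833 to 1.65). STAT3 thus kept a strong H3K4me3 promoter in both lists.

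Inside STAT3, H3K4me3 was also listed with both siRNAs at 3 places away from the promoter. Over exons 15 and 16, near an internal annotated TSS, there were 49 fragments in siCONT and 47 in siDLEU1, a ratio of 1.22 (0.801 to 1.86). Over exons 12 to 14 there were 87 and 80, a ratio of 1.17 (0.854 to 1.61). The place in intron 1, chr17:40530672-40531964, went the other way, with 113 and 53 fragments and a ratio of 0.598 (0.423 to 0.835). It was also the only one of the 3 with H3K27ac, a weak region of 20 fragments in siCONT and none in siDLEU1. An absent region means that it did not pass the authors' threshold, not that the mark was absent.

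STAT4 lies on the minus strand at chr2:191894302-192016322, with its canonical TSS at 192015720. Its promoter is shown because it was the only STAT promoter without H3K4me3, a choice made after its values were seen. The 250 bases before the TSS, chr2:192015721-192015970 on the minus strand, hold none of the letters searched, so nothing is in capitals. The letters CCAAT were searched as well, on both strands, and occur in this window at STAT3 alone of the family and in 33.8% of all promoters.
STAT4: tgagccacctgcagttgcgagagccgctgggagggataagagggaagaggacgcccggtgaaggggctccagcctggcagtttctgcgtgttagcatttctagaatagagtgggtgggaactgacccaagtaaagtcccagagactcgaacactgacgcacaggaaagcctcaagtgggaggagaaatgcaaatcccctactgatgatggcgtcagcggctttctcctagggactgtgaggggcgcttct
STAT4 had H3K27ac without H3K4me3 at its TSS with either siRNA, as did 5.49% of the genes with H3K27ac in siCONT and 3.36% in siDLEU1. The H3K27ac region had 47 fragments in siCONT and 45 in siDLEU1, or 2.19 and 1.53 per M. The ratio, 0.699 (0.454 to 1.08), was the highest of the family, and its interval includes both 1 and the median of all genes. The region was 940 bp long in siCONT and covered 4 of the 11 annotated TSSs of the gene. In siDLEU1 it was 510 bp long, lay wholly in intron 1 and covered 0 of them. Its rank was 25.9 in siCONT and 14.8 in siDLEU1.

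STAT5A and STAT5B lie next to each other on chromosome 17 and are read away from each other. STAT5A is on the plus strand at chr17:40439565-40463961 and STAT5B on the minus strand at chr17:40351194-40440651, with 12107 bp between their canonical TSSs. Of the annotated TSSs of STAT5B, 2 lie at the STAT5A promoter, so the regions there are counted for both genes and cannot be assigned to either.

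The H3K27ac level of the STAT5A promoter was low, as was that of STAT4. Its region had 42 fragments in siCONT and 33 in siDLEU1, a ratio of 0.574 (0.352 to 0.927), and shortened from 803 to 504 bp. Its H3K27ac rank was 29.0 and 18.1. H3K4me3 was weak there too, with 40 fragments in siCONT and 25 in siDLEU1 and a ratio of 0.796 (0.463 to 1.35), an interval that includes the median of all genes. A second, smaller H3K4me3 region in intron 1, with 28 fragments, was listed in siCONT only. By fragment number, STAT5A was the only STAT gene whose H3K4me3 rank was lower by at least 20 points, from 41.2 to 20.4 (5.30% of all genes).

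STAT5B carried strong H3K27ac on either side of its canonical TSS at 40428409, with no region over the TSS itself. The gap between the flanking regions was 306 bp in siCONT and 362 bp in siDLEU1 for H3K27ac, and 352 and 374 bp for H3K4me3. The place in intron 1 had 133 and 116 H3K27ac fragments, a ratio of 0.637 (0.492 to 0.823). The place upstream had 110 and 106, a ratio of 0.704 (0.534 to 0.928). Both ranks were higher in siDLEU1, at 95.7 against 93.0 and at 90.0 against 83.1, while both fragment numbers per M were lower. The larger H3K4me3 flank had 107 and 91 fragments, a ratio of 1.08 (0.810 to 1.45). STAT5B was the one STAT gene with a higher H3K27ac rank by both measures, 89.4 against 85.8 by fragment number.

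STAT6 lies on the minus strand at chr12:57489191-57525922, with its canonical TSS at 57505145. Its promoter is shown because STAT6 had the smallest H3K27ac rank change of the family over all its TSSs and the lowest CpG content. In chr12:57505146-57505395, minus strand, capitals mark TTC and GAA with 4 bases between them, the spacing of the STAT site that STAT6 is known to prefer.
STAT6: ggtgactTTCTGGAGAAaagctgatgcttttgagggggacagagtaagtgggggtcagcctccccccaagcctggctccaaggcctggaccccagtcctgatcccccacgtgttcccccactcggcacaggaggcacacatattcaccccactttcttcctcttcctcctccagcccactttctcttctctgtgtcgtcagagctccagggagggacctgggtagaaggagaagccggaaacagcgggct
The match starts at -243 from the TSS, and no other STAT promoter of the family holds one. These letters were searched on both strands, and 4.41% of the promoters of all genes hold them. It is a match of letters and not a measured binding site.

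At the canonical STAT6 TSS, the siCONT H3K27ac region was 1647 bp long with 127 fragments. In siDLEU1 there were 2 regions of 813 and 249 bp with a gap of 155 bp over the TSS, and the stronger had 76 fragments. The ratio was 0.437 (0.325 to 0.585), and 3.28% of genes had one as low. The upper end of the interval just includes the median of all genes. The rank at this place was 73.5 in siCONT and 46.8 in siDLEU1. H3K27ac regions covered 14 of the 22 annotated STAT6 TSSs in siCONT and 5 in siDLEU1, while H3K4me3 regions covered 14 in both.

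H3K4me3 at the STAT6 TSS was the strongest of the family. It had 217 fragments in siCONT and 182 in siDLEU1, a ratio of 1.07 (0.873 to 1.31), with ranks of 99.8 and 99.2. The siCONT region was 3415 bp wide, and 1.18% of the siCONT H3K4me3 regions were at least as wide. In siDLEU1 it was listed as regions of 2272 and 385 bp. Strong H3K4me3 thus stood beside a lower and split H3K27ac at the same TSS.

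Upstream alternative TSSs of STAT6 lie near LRP1, which encodes a lipoprotein receptor, and 2 H3K27ac places there are shared between both genes. The nearer to the STAT6 canonical TSS had 117 fragments in siCONT and 76 in siDLEU1, a ratio of 0.474 (0.351 to 0.639). The farther had 81 and 62, a ratio of 0.559 (0.395 to 0.788). Their ranks went opposite ways, from 68.1 to 71.5 and from 64.0 to 33.6. The local background was 1.0 in siCONT and 0.440 in siDLEU1 at the nearer place, and 0.497 and 1.0 at the farther. Its part in the rank changes was not tested. Because the nearer one is the strongest STAT6 region in siDLEU1, the rank of the gene over all TSSs changed only from 73.5 to 71.5. The nearer H3K4me3 place had 199 and 120 fragments, a ratio of 0.768 (0.607 to 0.969).

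By rank on fold enrichment, H3K27ac was lower at 4 STAT genes and higher at STAT2 and STAT5B, with a median change of -6.23 points, against 62.7% of all genes lower and a median of -4.58. None moved by at least 20 points and none gained or lost its region, against 19.3% of all genes lower, 7.0% higher, 5.60% in siCONT only and 0.279% in siDLEU1 only. This count of 0 did not hold at canonical TSSs, where STAT6 changed by -26.7 points, nor among protein-coding genes with a region, where STAT2 changed by 25.8 points. By fragment number it was lower at 5, all but STAT5B, against 70.2% of all genes, and by at least 20 points at STAT2 and STAT6, against 9.25% of all genes. By rank on fold enrichment, H3K4me3 was lower at 4 and higher at STAT2, by 0.230 points, with a median of -2.63 points against 0.248 for all genes and with 48.1% of all genes lower. None moved by at least 20 points on this measure or was in 1 list only, against 8.98% lower, 7.07% higher, 3.15% in siCONT only and 2.71% in siDLEU1 only. Among protein-coding genes with a region, the H3K4me3 rank of STAT3 changed by -20.3 points. Ranked by fragment number, all 5 were lower, against 46.9% of all genes. The total H3K27ac length was shorter at all 6 (93.6% of all genes) and past 1.5-fold shorter at STAT3, STAT4 and STAT5A (26.7% of all genes).

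**Figure D3:**
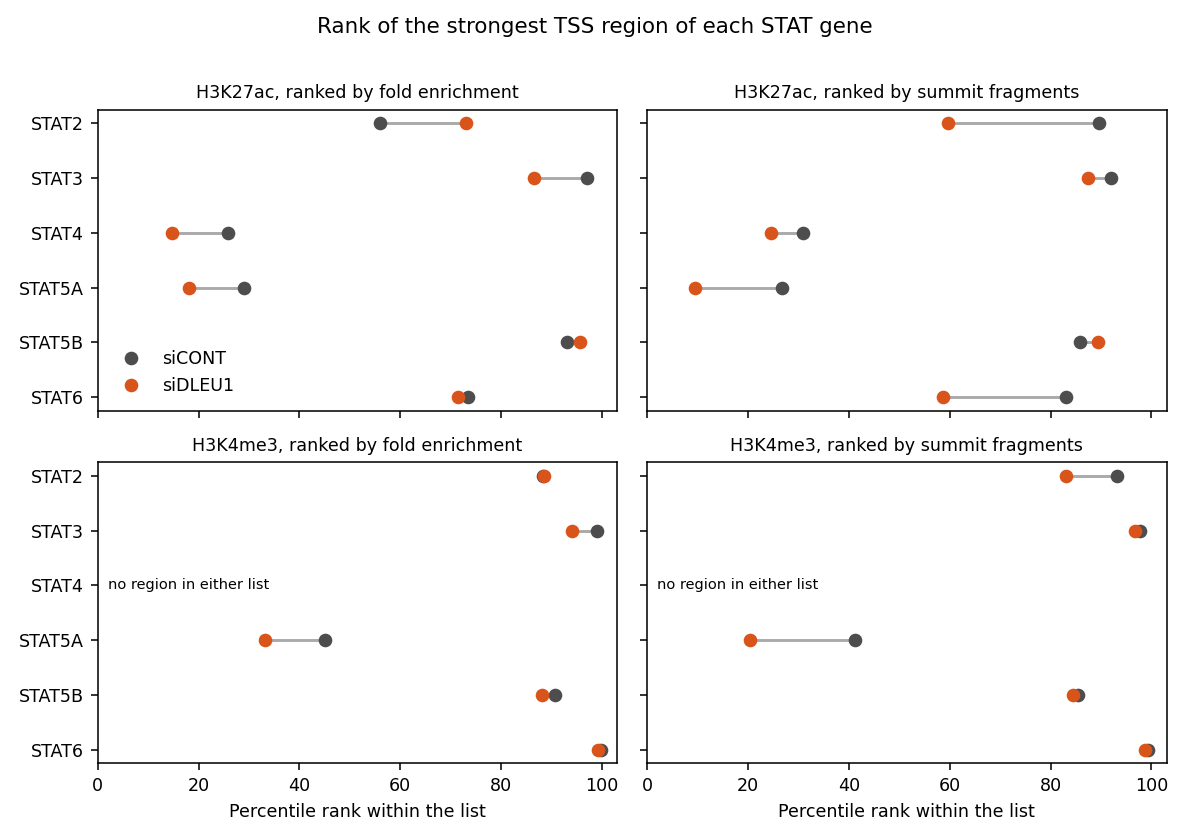
Percentile rank of each STAT gene in the siCONT and siDLEU1 lists, by fold enrichment and by fragment number, with a line joining the siRNAs for each gene. The STAT2 H3K27ac line rises from 55.9 to 73.0 by fold enrichment and falls from 89.7 to 59.7 by fragment number.

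**Figure D4:**
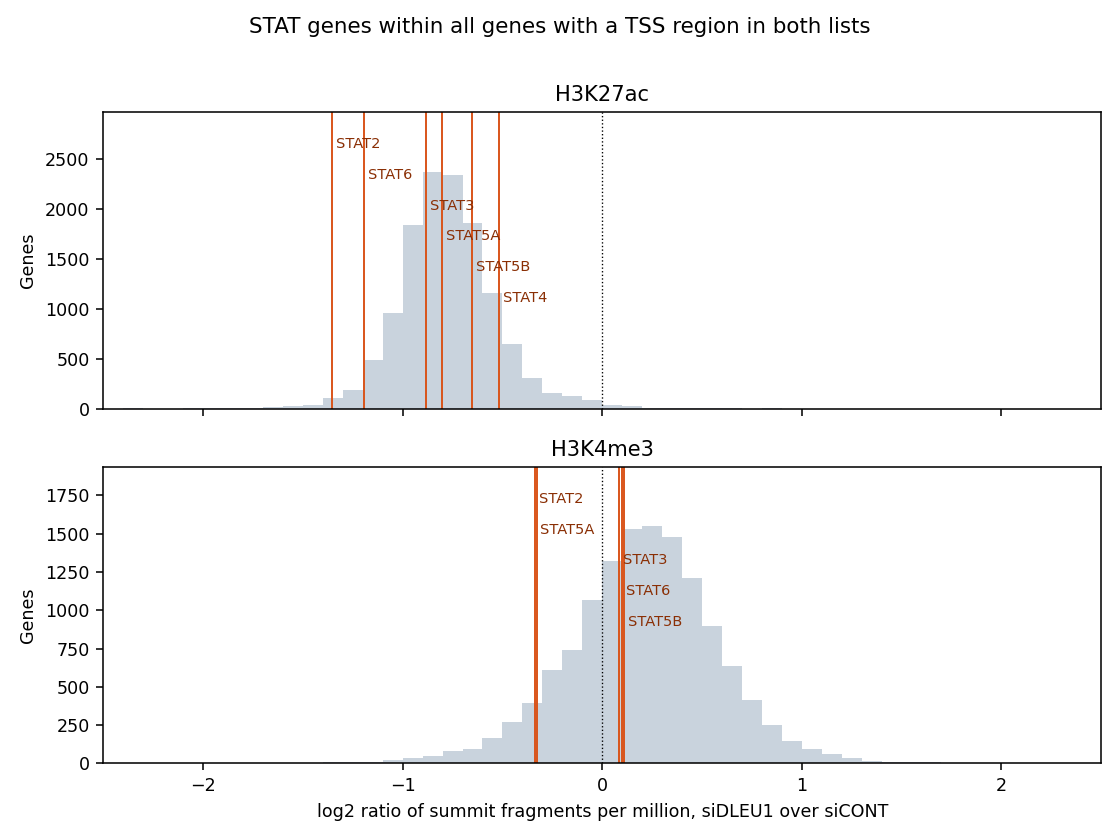
Number of genes by log2 ratio of fragments per M, siDLEU1 over siCONT, for all genes present in both lists, with a line for each STAT gene. STAT2 at 0.391 and STAT6 at 0.437 sit in the low tail for H3K27ac, whose median is 0.580, and the 5 STAT genes with H3K4me3 sit below its median of 1.16.

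A list of 42 other JAK-STAT genes gives the surroundings of the family: 4 JAK kinases, IRF9, 2 coactivators, 19 receptors, 12 inhibitors and 4 phosphatases. H3K27ac was at a TSS of 36 of them in siCONT and 35 in siDLEU1, against 56.3% and 53.3% of all genes. Of the 35 in both lists, 32 had a ratio past 1.5-fold lower, against 81.7% of all genes, with a median of 0.573. H3K4me3 was at 36 with either siRNA, against 56.6% of all genes in siCONT and 56.4% in siDLEU1. Its median ratio was 1.12, against 1.16 for all genes. The STAT genes, with medians of 0.558 and 1.06, were close to this list in both marks.

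IRF9, the DNA-binding partner of STAT2 and chosen after its values were seen, had an H3K27ac ratio close to that of STAT2. Of all genes, 1.04% had a ratio as low as that of STAT2. The ranks of IRF9 by fold enrichment were below those of STAT2, which were 55.9 in siCONT and 73.0 in siDLEU1. IRF9 had 150 fragments in siCONT and 80 in siDLEU1, a ratio of 0.390 (0.293 to 0.514). Its rank was higher in siDLEU1 by fold enrichment, 50.4 against 43.6, and lower by fragment number, 62.6 against 91.6. Its H3K4me3 ratio was 0.691 (0.564 to 0.843). IRF9 and SOCS2, an inhibitor of growth hormone signalling whose H3K27ac ratio was 0.384 (0.277 to 0.528), were the list members with an H3K27ac ratio below that of STAT2, by less than the width of the intervals.

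Among the kinases that phosphorylate STAT proteins, JAK1 had an H3K27ac ratio of 0.653, JAK2 0.574 and TYK2 0.487. JAK3, the partner of the common gamma chain of interleukin receptors, had H3K27ac at a rank of 36.0 in siCONT and no region in siDLEU1, and its H3K4me3 rank was 64.5 and 5.58. The H3K27ac rank of JAK2 was 56.1 and 95.7 by fold enrichment but 90.0 and 88.3 by fragment number, with 145 and 114 fragments. The other list members past 20 points in H3K27ac rank were lower at IFNLR1, IL10RB, OSMR, SOCS1, SOCS3 and SOCS5 and higher at IFNAR1, so that, counting JAK3 and JAK2, 7 of 36 were lower and 2 higher, against 19.3% and 7.0% of all genes. By fragment number several of these moved little or the other way, with rank changes of 6.88 points at SOCS3, -0.105 at OSMR, -8.26 at SOCS5, -10.4 at IL10RB and 7.16 at IFNAR1, while IFNLR1 at -27.2 stayed past 20 points and SOCS1 at -17.7 did not. In H3K4me3 rank, JAK3 was the 1 gene lower and CREBBP, IL7R and SOCS4 the 3 higher by that much, against 8.98% and 7.07% of all genes. The receptor genes IL12RB1 and IL12RB2, through which IL-12 reaches STAT4, had no region in any list. The same held for the receptor genes IL2RG, GHR and PRLR.

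**Figure D5:**
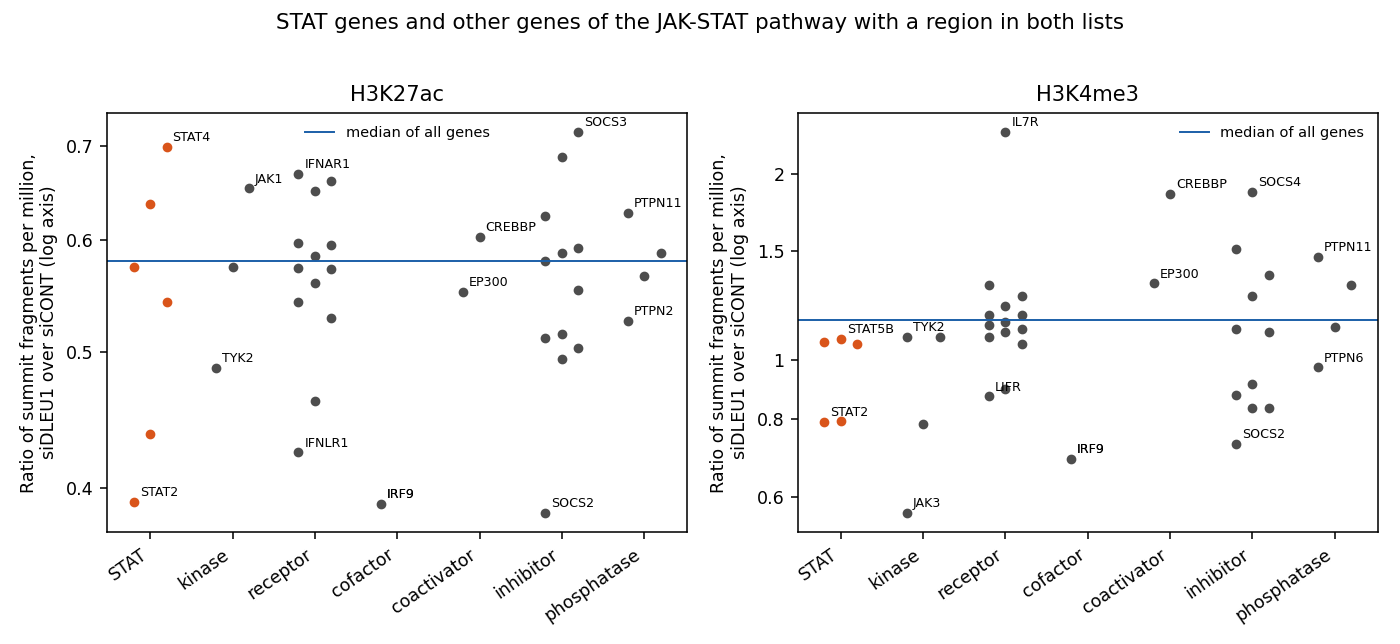
Ratio of fragments per M, siDLEU1 to siCONT, on a log axis for the STAT genes and for the other JAK-STAT genes grouped by role, with the median of all genes as a line. H3K27ac points lie mostly between 0.4 and 0.7, with STAT2, IRF9 and SOCS2 at the bottom.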

How the data were processed

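ChIP-seq was done on HSC3 cells 72 h after transfection, with a lone library per siRNA and mark. Reads from an Ion Proton instrument were placed on hg19 by the authors using bowtie2, and MACS2 called the peaks. Versions and settings of both are not given in the sources used here. The deposited values used were the fold enrichment, a ratio over the control track at each summit, and the -log10 p-value and -log10 q-value of each region. Control libraries were not analysed here.

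Fragment numbers, the local background and depths were recovered by matching each deposited fold enrichment and p-value to a Poisson count, which matched 100.0% of the regions. Depths assume a mappable genome of 2.7 Gb. The method was tested on simulated data. Fragment lengths were 187 and 176 bp for H3K27ac and 200 and 186 bp for H3K4me3, and an alternative divides by them too. Dividing by depth does not remove differences in ChIP efficiency, whose part in the ratios was not tested. TSSs came from GENCODE release 44 on GRCh37, and sequences from the GRCh37 genome. Python 3.11.15, numpy 2.4.6, scipy 1.17.1, pandas 2.3.3 and matplotlib 3.10.9 were used. Calls were a rank change of at least 20 points or a fold past 1.5, with no test.

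All members were named, with genes sharing their TSS regions. Of the JAK-STAT list, the kinases, the genes past the rank limit by fold enrichment and receptor genes without any region were named. Those past the fragment limit alone were counted, except IRF9, SOCS2, IL6ST and SOCS6, which were chosen after their values were seen. The members and lists were chosen with earlier results of these data known. One gene of the family is not reported here. Alternatives were a q-value minimum, windows of 3 and 5 kb, canonical TSSs, other measures of strength, protein-coding genes alone, and other scalings.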

Additional observations from a re-analysis of the deposited data

How the results depend on the processing

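No paired analysis was possible because each siRNA and mark has a lone library, which also means that no replicate was left out. Counting limits each fragment ratio, most of all at STAT4 and STAT5A, and a whole library that differs cannot be told apart from an effect of the siRNA. Windows of 3 and 5 kb kept every family median within the limit set for it.

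The median H3K27ac rank change, -6.23 points, was -4.37 with a -log10 q-value of at least 10, -10.6 at canonical TSSs, -8.24 by -log10 p-value, -11.8 by fragments and -1.23 among protein-coding genes with a region. The median H3K4me3 change, -2.63 points, was -3.19 by -log10 p-value, -1.01 by fragments and -4.09 among protein-coding genes. Ranking canonical TSSs by fragments, chosen after seeing the data, gave -11.8 and -1.01. The median H3K27ac length ratio, 0.660, was 0.495 with the q-value minimum, 0.636 at canonical TSSs, 0.715 with regions within 1 kb joined and 0.698 inside the window. For H3K4me3, 0.664 became 0.736, 0.726, 0.691 and 0.917. Scaled by list medians, the median fragment ratio was 0.842 for H3K27ac and reversed to 0.951 for H3K4me3. With depth and fragment length, chosen after seeing the data, it was 0.593 and 1.14.

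With the q-value minimum, 4 STAT genes had H3K27ac in siDLEU1 and 6 in siCONT, and 4 had H3K4me3 in either list. These counts have no share of all genes beside them. Changes of at least 20 points, absent from the reported ranks, appeared for STAT6 H3K27ac at canonical TSSs (-26.7) and by fragments (-24.3). STAT2 H3K27ac was -30.0 by fragments, at all or canonical TSSs. Among protein-coding genes, STAT2 H3K27ac was 25.8 and STAT3 H3K4me3 was -20.3. STAT5A H3K4me3 was -20.8 by fragments.

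Of 87 values at single genes, 37 stayed within the limit, 42 moved and 8 reversed. STAT2 H3K27ac reversed to -3.17 by -log10 p-value and to -30.0 by fragments, at all or canonical TSSs. STAT2 H3K4me3 reversed to -3.59 by -log10 p-value, to -10.2 by fragments, at all or canonical TSSs, and to -2.88 among protein-coding genes. STAT6 H3K27ac reversed to 0.0920 among protein-coding genes. The cause was not tested.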

Other observations

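CpG density in the 500 bp around the canonical TSS differed widely within the family. The observed to expected CpG ratio was 0.996 at STAT5B, 0.916 at STAT5A, 0.670 at STAT3, 0.635 at STAT2, 0.538 at STAT4 and 0.222 at STAT6. The median was 0.840 over genes with H3K4me3 at the canonical TSS and 0.346 over those without it. STAT6, with the strongest H3K4me3 of the family, thus had a lower ratio than STAT4, which had no H3K4me3, and 2.62% of the genes with H3K4me3 had one as low as STAT6.

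Over the 4 lists, the protein-coding gene nearest in percentile rank, sought for the 5 members with a region in every list and so not for STAT4, was BCDIN3D for STAT2 (a Euclidean distance of 1.79 percentile points), TRIO for STAT3 (1.90), CDK5R1 for STAT5A (7.24), KLHL20 for STAT5B (2.36) and C11orf71 for STAT6 (1.47). These distances rest on 4 values a gene. Within 10 points lay 84 genes for STAT2, 580 for STAT3, 4 for STAT5A, 480 for STAT5B and 152 for STAT6. Except at STAT5A, the nearest gene was thus 1 of many with similar ranks.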
